A study of Mus musculus with 8 samples.

Results

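The nuclear genes that encode subunits of the respiratory chain complexes I to IV, cytochrome c and the ATP synthase (complex V) were followed in TTE3 cells, a mouse testicular Sertoli cell line. Members were the probe sets with a single gene symbol beginning Ndufa, Ndufb, Ndufc, Ndufs, Ndufv, Uqcr or Atp5, the Sdha to Sdhd, Cyc1 and Cycs probe sets, and those of Cox4 to Cox8 followed by letters or i1. Ndufaf symbols, which name assembly factors, were left out. The rule found 154 of the 22690 probe sets on the array, for 81 of the 12393 genes named.

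TTE3 cells come from a transgenic mouse that carries the large T-antigen of simian virus 40 in a form that heat inactivates, and every sample holds that transgene. RNA was measured on 8 Mouse Expression Array 430A arrays after 0, 6, 12 and 24 h at 39 °C, which is nonpermissive for the T-antigen, with 2 numbered samples per time. The series asks which genes change as this temperature makes the cells differentiate. Temperature, loss of the T-antigen and time in culture changed together and cannot be told apart, and the labels do not say whether the 2 samples of a time are separate cultures. The p-values therefore cover the spread among these 8 samples alone, which may be technical.

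Complexes I to IV of the inner mitochondrial membrane pass electrons from NADH and succinate to oxygen, with cytochrome c as the carrier between complexes III and IV, and the proton gradient so built drives the ATP synthase. Each large complex has catalytic core subunits, which hold the flavin, iron-sulfur clusters, haem or nucleotide sites, and many small accessory subunits that stabilise or assemble it. Sertoli cells are known for passing lactate from glycolysis to germ cells, and for using fatty acids in their own respiration.

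Promoter windows are shown for 4 genes at both ends of the response described below: the pair with the highest and, among genes with a window, the pair with the lowest log2 change at 24 h against 0 h, by the brightest probe set of each gene called. Cyc1, between the last pair, has no window. The windows were taken from RefSeq on GRCm38.p6 and run 5′ to 3′ from 250 bases before to 50 bases after the start of transcription. Cox7a2l lies at chr17:83514284-83514583 on the minus strand, Ndufb2 at chr6:39592315-39592614 on the plus strand, Ndufb8 at chr19:44555393-44555692 on the minus strand and Ndufs3 at chr2:90904672-90904971 on the minus strand. Capitals mark matches, on either strand, to AAGATGGC (a YY1 motif), CCGGAAG (an ETS motif, as bound by GABP) or GCGC, any base and TGCGC (an NRF1 motif).
Cox7a2l: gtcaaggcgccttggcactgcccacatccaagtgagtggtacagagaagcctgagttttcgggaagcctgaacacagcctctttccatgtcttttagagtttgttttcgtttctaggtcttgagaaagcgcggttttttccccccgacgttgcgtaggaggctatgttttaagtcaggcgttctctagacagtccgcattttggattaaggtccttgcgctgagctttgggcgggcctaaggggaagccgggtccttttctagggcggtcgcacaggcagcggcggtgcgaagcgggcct
Ndufb2: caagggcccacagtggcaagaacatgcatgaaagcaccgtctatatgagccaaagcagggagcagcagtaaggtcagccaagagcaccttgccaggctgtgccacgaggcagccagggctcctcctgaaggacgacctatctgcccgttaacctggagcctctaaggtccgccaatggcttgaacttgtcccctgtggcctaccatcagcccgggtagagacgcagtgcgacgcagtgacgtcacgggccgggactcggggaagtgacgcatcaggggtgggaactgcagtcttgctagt
Ndufb8: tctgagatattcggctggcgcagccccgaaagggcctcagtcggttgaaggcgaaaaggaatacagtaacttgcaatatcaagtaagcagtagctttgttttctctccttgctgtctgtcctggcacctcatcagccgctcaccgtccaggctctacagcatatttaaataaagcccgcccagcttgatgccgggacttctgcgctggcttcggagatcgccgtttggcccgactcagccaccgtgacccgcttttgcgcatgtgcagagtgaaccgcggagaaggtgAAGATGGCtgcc
Ndufs3: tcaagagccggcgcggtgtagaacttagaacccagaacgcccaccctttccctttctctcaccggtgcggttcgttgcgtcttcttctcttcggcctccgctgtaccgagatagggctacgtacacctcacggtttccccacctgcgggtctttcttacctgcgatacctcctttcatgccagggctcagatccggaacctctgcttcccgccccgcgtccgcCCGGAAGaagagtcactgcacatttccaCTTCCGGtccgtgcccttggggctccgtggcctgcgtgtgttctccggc

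The windows of Cox7a2l and Ndufb2, which rose, held none of these motifs. Of those that fell, Ndufb8 held 1 YY1 match after its start of transcription, and Ndufs3 held 2 ETS matches on opposite strands. A window was found for 66 of the 81 genes. The NRF1 letters were in 14 of them (21.2%), against 7.17% of 17491 protein-coding genes and 4.60% of all 32851 windows. The ETS letters were in 17 (25.8%), against 12.9% of protein-coding genes and 8.86% of all windows, and the YY1 letters in 9 (13.6%), against 3.57% and 2.75%. The last letters of the ETS motif are the first of the YY1 motif, so that 1 stretch can hold both, and each motif was counted on its own. A match is a description of the letters only. Among the 12 genes higher at 24 h, 2 held the NRF1, 4 the ETS and 0 the YY1 letters. Of the 9 genes lower at 24 h, 7 had a window, and there 1 held the NRF1, 1 the ETS and 2 the YY1 letters.

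Values are the deposited probe set intensities (units), already scaled so that every array has nearly the same trimmed mean. Log2 changes were computed from log2(intensity + 22), followed by their standard error after ±, and a probe set was called at a Benjamini-Hochberg adjusted p below 0.05 over all 13576 probe sets tested, by limma's moderated test. A value given after "without" is the adjusted p of the same call with that array left out, where array 1 and array 2 of a time are its replicates 1 and 2. The subunit genes were bright: the median tested member had a mean of 3387 units, against 444 units for all tested probe sets, and 125 of the 139 tested members were above 1000 units. The other 15 member probe sets were too dim to pass the filter (about 74.1 units), and 5 genes, Cox4i2, Cox6b2, Cox7a1, Cox7c and Cox8b, had none that passed. All arrays had similar control ratios (actin 1.03 to 1.13 and Gapdh 0.717 to 0.805, 3′ over 5′ end). Of the Sertoli markers, 11 of 20 on the array passed the filter. Among them Wt1 lay between 88.7 and 179.8 units, Sox9 between 108.8 and 197.7 units and Gata4 between 393.2 and 596.5 units. Amh (3.5 to 13.8 units) and Fshr (9.9 to 63.5 units), markers of the immature and the hormone-responsive Sertoli cell, did not pass. Of markers of other cells, 3 of 5 for macrophages, 2 of 5 for peritubular myoid cells, 1 of 7 for germ cells, 1 of 4 for Leydig cells and 0 of 5 for endothelial cells passed the filter. The summed germ cell markers lay between 1368.7 and 1430.2 units at 24 h, against 399.5 to 519.4 at 0 h, and the Leydig markers between 248 and 326.1 units at 24 h, against 96.8 to 157.9 at 0 h. Most of both sums was 1 gene, Kit (1224.7 and 1222.3 units at 24 h, against 252.7 and 348.8 at 0 h) and Star (229.9 and 287.2 units at 24 h, against 74.6 and 134.5 at 0 h), while Ddx4 (8.4 to 37.1 units) and Cyp11a1 (4.3 to 12.2 units) were dim on all arrays. The macrophage sums lay between 601.1 and 620 units at 24 h, against 513.9 to 596 at 0 h, but the markers that passed went different ways. Cd68 was higher (321 and 299.1 units at 24 h, against 175.9 and 224.9 at 0 h). Csf1r was lower (120.2 and 125.2 units, against 164 and 169.6). Cd14 overlapped (88 and 101.2 units, against 114 and 98). The part of other cells in the 24 h results was not tested.

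Over the 4 times 50 of 139 members changed by the moderated F-test (36.0%, against 40.1% of all probe sets tested), a share near the background. At 6 h against 0 h 16 members rose and 1 fell, with 1 of the rises, a dim Ndufa12 probe set, tested only through its 6 h arrays, against 8.65% of all tested probe sets higher and 9.33% lower. At 12 h against 0 h 33 rose and 2 fell, against 12.1% higher and 11.9% lower. At 24 h against 0 h 25 rose and 13 fell, against 17.1% higher and 15.8% lower, so that by then the share that rose (18.0%) was close to the background and the share that fell (9.35%) below it. The median log2 change of the members was 0.15 at 6 h, 0.17 at 12 h and 0.07 at 24 h, beside 0.00, 0.01 and 0.02 over all tested probe sets. With arrays centred on their medians, which moves the median of all tested probe sets at 24 h to -0.09, 14 members rose and 25 fell at 24 h and the members' median was -0.03, while 10 rose and 1 fell at 6 h and 16 rose and 2 fell at 12 h. These 3 comparisons share the 0 h arrays. The counts with centred arrays given below for single groups carry such a shift of all probe sets. No share over all probe sets with that centring stands beside them. In bulk RNA, fewer cells of a type and less RNA per cell cannot be told apart.

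**Figure D1:**
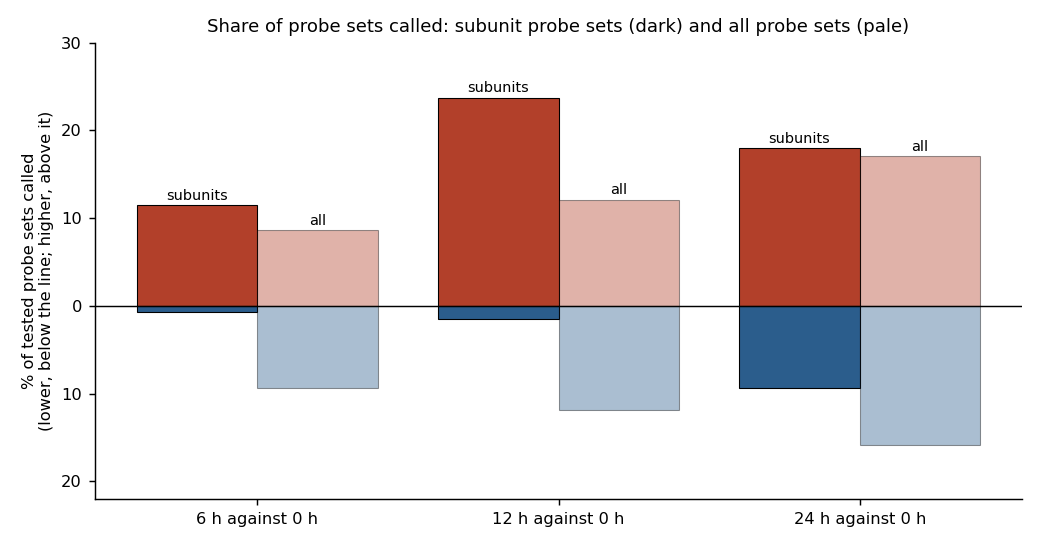
Percentage of tested probe sets called higher (above the line) and lower (below it) at 6, 12 and 24 h against 0 h, for the 139 subunit probe sets (dark bars) and all 13576 tested probe sets (pale bars). At 12 h 23.7% of the subunit probe sets were called higher and 1.44% lower; at 24 h the values were 18.0% and 9.35%.

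At 24 h against 6 h 6 members rose and 19 fell (13.6% of all tested probe sets were higher and 11.3% lower), with a median log2 change of -0.05. At 24 h against 12 h limma called 0 rises and 7 falls (3.77% higher and 3.11% lower), with a median of -0.11, and at an unadjusted p below 0.05 5 were higher and 25 lower. At 12 h against 6 h 3 rose and 2 fell (4.61% higher and 3.71% lower). With quantile normalization the median at 24 h against 6 h was 0.02, with 11 rises and 16 falls, so its sign depended on the scaling.

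Most single calls rested on few arrays. Of the calls at 24 h against 0 h, 9 of 25 rises and 3 of 13 falls passed with any 1 of the 8 arrays left out; at 12 h it was 6 of 33 rises and 0 of 2 falls, and at 6 h 1 of 16 rises and 0 of 1 falls. The genes with such calls at 24 h, on 1 or more of their probe sets, were Cox7a2l, Uqcr10, Ndufb2, Sdha, Atp5e and Ndufa1, which rose, and Cyc1, Ndufa9 and Ndufv2, which fell. At 6 h the first array stood above the second for 96 of 139 members, beside 51.9% of all probe sets tested, and the median difference was 0.10. At 24 h it was 93 of 139, beside 49.96%, with a median difference of 0.05, and it was 64 at 0 h and 80 at 12 h. The median size of the difference between the arrays of a time was 0.183 at 6 h for the members, against 0.068 at 0 h, 0.102 at 12 h and 0.093 at 24 h.

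**Figure D2:**
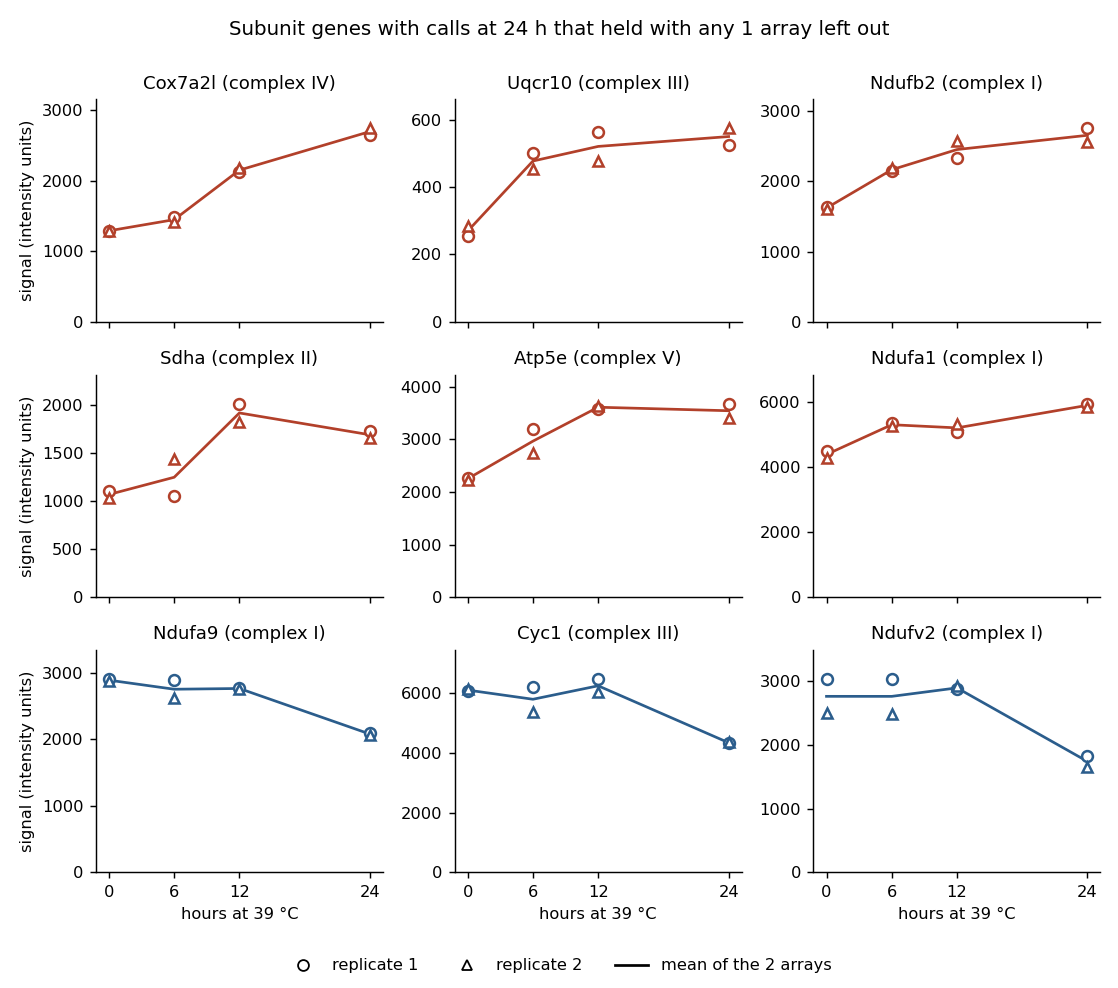
Signal in intensity units against hours at 39 °C for the 9 genes with a call at 24 h against 0 h that held with any 1 array left out. Each gene is shown by the probe set with the lowest adjusted p among such calls. For Cox7a2l, Uqcr10, Sdha and Ndufv2 this is not the brightest probe set. The brightest of Uqcr10 and Sdha had no call at 24 h against 0 h, and the call of the brightest of Ndufv2 did not hold. Circles are replicate 1, triangles replicate 2 and lines the mean of both. In the upper 6 panels (red) both 24 h arrays lie above both 0 h arrays, and in the lower 3 panels (blue) both lie below them.

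Counted by gene, with each gene given by its brightest probe set, 76 genes were tested. At 6 h 7 rose and 0 fell against 0 h (9.15% of all 7707 genes were higher and 9.33% lower). At 12 h 15 rose and 1 fell (13.3% and 12%), and at 24 h 12 rose and 9 fell (18.6% and 16.6%). With arrays centred on their medians 4 rose and 1 fell at 12 h and 5 rose and 14 fell at 24 h. The 12 genes that rose at 24 h were Ndufa1, Ndufa6, Ndufb2, Ndufb5, Ndufb11, Uqcr11, Uqcrh, Cox7a2l, Ndufa4, Cox7a2, Atp5e and Atp5h. The 9 that fell were Ndufs3, Ndufv2, Ndufa9, Ndufa10, Ndufb8, Ndufb10, Cyc1, Uqcrc1 and Atp5a1. The F-test called 23 of the 76 genes (42% of all genes), of which 11 were lowest at 0 h and 10 at 24 h. Highest values were spread more evenly, with 4 genes at 0 h, 6 each at 6 h and 12 h, and 7 at 24 h. Some genes named below, Ndufs3, Ndufa9, Ndufa10, Ndufb10, Uqcrc1, Uqcr11, Uqcrh, Ndufa1, Ndufa4, Atp5a1 and Atp5h among them, were chosen after their values were seen.

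**Figure D3:**
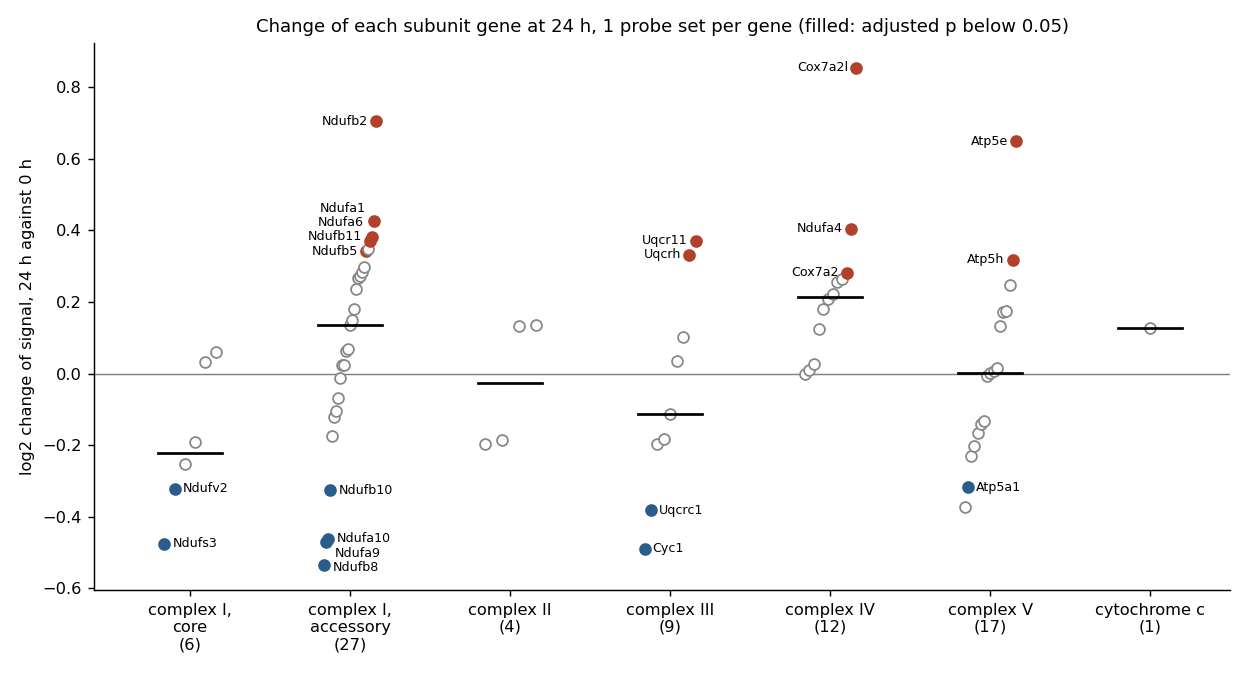
Log2 change of signal at 24 h against 0 h for each of the 76 tested genes, by its brightest probe set and by complex, with the number of genes under each name. Filled and named points had an adjusted p below 0.05, and black lines are medians. Core complex I genes have a median of -0.22 and accessory ones of 0.13, and complex IV has a median of 0.21 with no gene called lower.

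Among the core subunits of complex I, the NADH dehydrogenase, all calls at 24 h against 0 h were falls. They had 16 probe sets for 6 genes (Ndufs1, Ndufs3, Ndufs7, Ndufs8, Ndufv1 and Ndufv2). At 24 h against 0 h 6 fell (37.5%, against 15.8% of all tested probe sets) and 0 rose (against 17.1%). The median was -0.29, and 13 of 16 had negative changes. Of the 6 falls, 3 were probe sets of Ndufv2 and 2 of Ndufv1. Counted by gene, 2 of 6 fell (33.3%, against 16.6% of all genes), 0 rose and 4 of 6 had negative changes. At an unadjusted p below 0.05 limma gave 9 lower and 1 higher of the 16 probe sets. At 6 h 1 rose and 1 fell (6.25% each, against 8.65% and 9.33% of all tested probe sets). At 12 h 2 rose (12.5%, against 12.1%) and 1 fell (6.25%, against 11.9%). Against 6 h 8 fell (50%, against 11.3%) and 0 rose (against 13.6%) at 24 h, with a median of -0.34. With arrays centred on their medians 9 fell and 0 rose at 24 h against 0 h, and with quantile normalization 5 fell and 1 rose. The median of the 16 stood at -0.22 and -0.29 on the 24 h arrays relative to the 0 h mean, against 0.06 on both 12 h arrays and 0.17 and -0.08 on the 6 h arrays.

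Ndufv2, which carries an iron-sulfur cluster beside the NADH site, has 3 probe sets. The one with the widest span read 3027.1 and 2496.9 units at 0 h, 3032.7 and 2490.5 at 6 h, 2872.0 and 2917.2 at 12 h and 1822.1 and 1659.0 at 24 h. Both 24 h arrays were below all 6 others. The log2 change was -0.65 ± 0.12 (adjusted p = 0.00203) at 24 h against 0 h, and -0.65 ± 0.12 (adjusted p = 0.00292) at 24 h against 6 h. Against 12 h it was -0.73 ± 0.12 (adjusted p = 0.00774, but 0.0566 without array 2 of 12 h and 0.0934 without array 2 of 24 h). Its name ends in _x_at, the array's mark for probes that may match other transcripts. The brightest Ndufv2 probe set had a smaller log2 change of -0.32 ± 0.10 (adjusted p = 0.0309) at 24 h against 0 h, and the last one of -0.32 ± 0.10 (adjusted p = 0.0305). The brightest lost its call without either 0 h array (adjusted p = 0.134 and 0.140) or either 24 h array (0.145 and 0.108), and the last without array 1 of 0 h (0.0979), array 2 of 0 h (0.176), array 1 of 24 h (0.199) or array 2 of 24 h (0.0644).

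Ndufv1, the subunit that binds NADH and the flavin, showed its lower signal early on 1 of 3 probe sets, which read 3208.3 and 2882.4 units at 0 h, 2519.3 and 2306.6 at 6 h, 2411.8 and 2408.8 at 12 h and 2236.4 and 2284.9 at 24 h. All later arrays were below both 0 h arrays. Its log2 change was -0.33 ± 0.10 (adjusted p = 0.0343) at 6 h against 0 h, and -0.42 ± 0.10 (adjusted p = 0.00593) at 24 h. The call at 24 h ended without array 1 of 0 h (0.0824). The call at 6 h ended without array 1 (0.265) or 2 (0.0816) of 0 h, array 2 of 6 h (0.0752) or either 24 h array (0.0600 for each). At 12 h the change was -0.33 ± 0.10 (adjusted p = 0.0277). The call was lost without array 1 (0.228) or 2 (0.0623) of 0 h or array 1 (0.0925) or 2 (0.0979) of 12 h. Another had a change of -0.37 ± 0.09 (adjusted p = 0.00839) at 24 h (0.0679 without array 1 of 0 h, 0.0586 without array 2 of 0 h and 0.0725 without array 2 of 24 h). The brightest Ndufv1 probe set did not pass at 24 h (-0.25 ± 0.10, adjusted p = 0.0698).

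Ndufs3, a core subunit of the arm that meets the quinone site, read 2218.8 and 2125.5 units at 0 h, 2241.8 and 2014.4 at 6 h, 1839.1 and 1753.0 at 12 h and 1644.7 and 1472.5 at 24 h. The signal stayed level at 6 h and was lowest on the 24 h arrays, with no overlap between 24 h and any earlier time. Its log2 change at 24 h against 0 h was -0.48 ± 0.10 (adjusted p = 0.00433, but 0.0559 without array 2 of 24 h). Ndufs8, which holds a pair of iron-sulfur clusters, has 6 probe sets, and the one named by the rule read 1867.2 and 1893.5 units at 0 h, 2443.7 and 2012.0 at 6 h, 1672.6 and 2108.1 at 12 h and 1523.2 and 1439.0 at 24 h. There 24 h was below every other time, and the change against 6 h was -0.58 ± 0.13 (adjusted p = 0.00742, but 0.0623 without array 2 of 24 h), while against 0 h it was -0.34 ± 0.13 (adjusted p = 0.0625). Ndufs7, another iron-sulfur subunit, went the other way at 12 h. Its log2 change was 0.35 ± 0.10 (adjusted p = 0.02) on its brightest probe set (0.119 without array 1 of 0 h, the highest of 4 such values), and 0.06 ± 0.10 (adjusted p = 0.675) at 24 h. Ndufs1, the largest core subunit, did not pass at 24 h against 0 h (0.03 ± 0.11, adjusted p = 0.86).

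Accessory subunits of complex I moved in both directions. Of 48 probe sets for 27 genes, 5 rose and 0 fell at 6 h, 14 rose and 1 fell at 12 h, and 9 rose and 4 fell at 24 h, with medians of 0.13, 0.18 and 0.11. The shares that rose were 10.4%, 29.2% and 18.8%, against 8.65%, 12.1% and 17.1% of all tested probe sets. At 24 h 8.33% fell, against 15.8%. By then the share that rose was near that of all probe sets and the share that fell below it. Centring the arrays turned the 24 h count to 5 rises and 5 falls with a median of 0.01.

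Ndufb2, a small subunit of the membrane arm, rose at each later time. Its brightest probe set read 1640.1 and 1598.9 units at 0 h, 2142.5 and 2187.6 at 6 h, 2336.1 and 2568.9 at 12 h and 2752.7 and 2558.3 at 24 h. Each later array stood above both 0 h arrays, and both 24 h arrays were above both 6 h arrays. The log2 change was 0.41 ± 0.09 (adjusted p = 0.0127) at 6 h (0.0807 without array 1 of 0 h and 0.0987 without array 2 of 0 h), 0.59 ± 0.09 (adjusted p = 0.00127) at 12 h and 0.71 ± 0.09 (adjusted p = 0.000235) at 24 h, and the 12 h and 24 h calls held with any 1 array left out. A further Ndufb2 probe set read 1145.4 and 1213.9 units at 0 h, 1784.2 and 1402.2 at 6 h, 1812.0 and 1735.4 at 12 h and 1762.4 and 1728.6 at 24 h. It also stood higher at every later time. This was a log2 change of 0.56 ± 0.12 (adjusted p = 0.00406) at 24 h, and here too the call held with any 1 array left out.

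Ndufa1, a small membrane-arm subunit needed for assembly, read 4512.1 and 4270.9 units at 0 h, 5347.8 and 5267.7 at 6 h, 5088.8 and 5332.1 at 12 h and 5952.5 and 5858.0 at 24 h. All later arrays were above both 0 h arrays. The log2 change was 0.43 ± 0.09 (adjusted p = 0.00315) at 24 h, 1.34-fold, and held with any 1 array left out (highest adjusted p = 0.0462). Ndufb5, another membrane-arm subunit, read 2195.5 and 2098.2 units at 0 h, 1972.0 and 2257.1 at 6 h, 3018.7 and 2657.3 at 12 h and 2973.3 and 2498.7 at 24 h. Its 6 h arrays straddled the 0 h arrays and the 12 h arrays were above both. The change was 0.42 ± 0.12 (adjusted p = 0.0485) at 12 h against 6 h and 0.34 ± 0.12 (adjusted p = 0.0424) at 24 h against 0 h. The call between 12 h and 6 h ended without any one of 7 arrays (highest adjusted p = 0.209, without array 1 of 12 h), and that at 24 h without array 1 (0.126) or 2 (0.196) of 0 h or array 1 of 24 h (0.309).

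Ndufs4, an accessory subunit whose loss in mice gives a Leigh-like disease, was named for a dim probe set that read 116.8 and 122.7 units at 0 h, 215.6 and 162.3 at 6 h, 232.2 and 190.7 at 12 h and 205.2 and 236.2 at 24 h. Both 24 h arrays were above both 0 h arrays (0.77 ± 0.19, adjusted p = 0.00831), and the call ended without array 1 of 0 h (0.0558) or array 2 of 24 h (0.0772). Its bright probe set read 1147.7 and 1124.7 units at 0 h, 1207.1 and 1047.0 at 6 h, 1389.2 and 1436.9 at 12 h and 1403.8 and 1371.2 at 24 h, with a change at 24 h of 0.28 ± 0.10 (adjusted p = 0.0544). Ndufa12, which is added late in assembly, was also named for a dim probe set, which read 55.6 and 59.8 units at 0 h, 127.7 and 111.5 at 6 h, 94.3 and 75.0 at 12 h and 84.9 and 54.2 at 24 h. Its mean, 6.67 log2 over the 8 arrays, passed the filter of 6.59 only through the 6 h arrays where it was high (6.51 without them), so its 6 h value is given as a description, with no test. The bright one, the brightest of all complex I members, read 8069.7 and 8136.6 units at 0 h, 8474.8 and 8325.2 at 6 h, 8603.1 and 8776.2 at 12 h and 7993.7 and 7455.3 at 24 h and had a change of 0.05 ± 0.09 (adjusted p = 0.723) at 6 h.

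Ndufa9 and Ndufa10, accessory subunits at the joint and in the membrane arm that have folds of nucleotide-binding enzymes, were lower at 24 h. Ndufa9 read 2906.7 and 2874.1 units at 0 h, 2891.8 and 2616.7 at 6 h, 2765.7 and 2764.9 at 12 h and 2096.6 and 2063.7 at 24 h. Both 24 h arrays lay below all others. This was a log2 change of -0.47 ± 0.09 (adjusted p = 0.00245) against 0 h and held with any 1 array left out (highest adjusted p = 0.0293). Ndufa10 read 3513.1 and 3604.4 units at 0 h, 3379.2 and 3476.8 at 6 h, 3118.3 and 2785.0 at 12 h and 2723.5 and 2439.0 at 24 h. The groups stepped down without overlap from 0 h onwards, and the change at 24 h was -0.46 ± 0.10 (adjusted p = 0.00417, but 0.0559 without array 2 of 24 h).

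Ndufb8, a membrane-arm subunit often used as a protein marker of complex I, read 3266.0 and 3471.7 units at 0 h, 2888.2 and 3064.6 at 6 h, 2015.4 and 2848.4 at 12 h and 2568.2 and 2091.1 at 24 h. Both 24 h arrays were below both 0 h arrays, but the 12 h arrays differed widely from each other. Its log2 change was -0.53 ± 0.15 (adjusted p = 0.0187) at 24 h and -0.49 ± 0.15 (adjusted p = 0.037) at 12 h. The 24 h call ended without array 1 (0.0703) or 2 (0.112) of 0 h or array 2 of 24 h (0.163). The 12 h call ended without array 1 (0.119) or 2 (0.184) of 0 h or array 1 of 12 h (0.272). Ndufb10, from the same arm, had a change of -0.33 ± 0.11 (adjusted p = 0.0383) at 24 h (0.336 without array 1 of 0 h, 0.0825 without array 1 of 24 h and 0.214 without array 2 of 24 h).

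A further pair of accessory subunits had probe sets with their highest values at 6 or 12 h. Ndufa5, of the peripheral arm, on the dimmer of its probe sets read 1973.8 and 1779.7 units at 0 h, 2051.5 and 2073.9 at 6 h, 2629.7 and 2506.9 at 12 h and 1844.1 and 1752.8 at 24 h. Its 12 h arrays were above all others and its 24 h arrays overlapped those of 0 h. The change was 0.45 ± 0.10 (adjusted p = 0.00617) at 12 h against 0 h (0.0808 without array 2 of 0 h) and -0.51 ± 0.10 (adjusted p = 0.0123) at 24 h against 12 h. The call did not hold without any 12 h or 24 h array (0.0570 to 0.119). The brightest Ndufa5 probe set read 2180.2 and 2187.8 units at 0 h, 2695.1 and 2549.5 at 6 h, 2598.5 and 2481.3 at 12 h and 2217.9 and 2224.2 at 24 h, and its changes of 0.22 ± 0.09 (adjusted p = 0.103) at 12 h against 0 h and -0.19 ± 0.09 (adjusted p = 0.231) at 24 h against 12 h did not pass. Ndufa7 on an _x_at probe set read 1314.8 and 1201.5 units at 0 h, 1516.7 and 1349.1 at 6 h, 999.2 and 1111.1 at 12 h and 1043.7 and 1010.7 at 24 h. There both 6 h arrays were above all others. The change was -0.47 ± 0.11 (adjusted p = 0.00905) at 24 h against 6 h (0.0696 without array 2 of 24 h); at 12 h against 6 h it was -0.43 ± 0.11 (adjusted p = 0.0342). That call ended without any one of 7 arrays (highest 0.151, without array 1 of 12 h). The brightest Ndufa7 probe set was at 0.04 ± 0.09 (adjusted p = 0.785) at 24 h against 6 h.

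Complex II, succinate dehydrogenase, is the only complex of the chain with no mitochondrially encoded subunit and also works in the TCA cycle. Its 4 genes had 7 tested probe sets, of which 0 fell. At 12 h and at 24 h 1 rose (14.3%, against 12.1% and 17.1% of all tested probe sets). That one belongs to Sdha, the flavoprotein, and read 1106.4 and 1030.9 units at 0 h, 1057.4 and 1439.2 at 6 h, 2014.1 and 1823.0 at 12 h and 1725.6 and 1656.8 at 24 h. The 12 h and 24 h arrays were above all earlier ones. The changes were 0.83 ± 0.14 (adjusted p = 0.00137) at 12 h and 0.65 ± 0.14 (adjusted p = 0.00361) at 24 h, and both calls held with any 1 array left out. At 12 h against 6 h the change was 0.63 ± 0.14 (adjusted p = 0.02, but 0.0971 without array 1 of 12 h and 0.061 without array 2 of 12 h). Its name ends in _s_at, the array's mark for probes shared by several transcripts. The brighter Sdha probe set read 2388.2 and 2403.8 units at 0 h, 2299.6 and 2282.1 at 6 h, 2920.3 and 2738.2 at 12 h and 2718.5 and 2546.8 at 24 h, and its change at 12 h was 0.24 ± 0.09 (adjusted p = 0.0804), in the same direction but not past the threshold.

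Sdhb, the iron-sulfur subunit and the brightest of complex II, read 4373.2 and 4350.1 units at 0 h, 5366.2 and 4159.7 at 6 h, 5118.3 and 4674.4 at 12 h and 3759.1 and 3849.3 at 24 h. Its 24 h arrays were below all others, yet the change against 0 h was -0.20 ± 0.12 (adjusted p = 0.232). Sdhc, a membrane anchor, read 1388.3 and 1435.0 units at 0 h, 1477.4 and 1376.6 at 6 h, 1572.9 and 1524.4 at 12 h and 1485.0 and 1620.8 at 24 h on its brighter probe set. There both 24 h arrays were above both 0 h arrays. Its dimmer one read 638.6 and 783.0 units at 0 h, 704.1 and 977.8 at 6 h, 721.5 and 781.3 at 12 h and 590.7 and 875.7 at 24 h. Sdhd, the other anchor, read 2116.0 and 2391.7 units at 0 h, 2242.6 and 2008.5 at 6 h, 2335.0 and 2006.1 at 12 h and 2123.5 and 1838.3 at 24 h on the brighter probe set. Its dimmer one read 232.0 and 322.4 units at 0 h, 288.1 and 233.0 at 6 h, 216.5 and 182.2 at 12 h and 295.2 and 271.2 at 24 h. No Sdhb, Sdhc or Sdhd probe set passed in any of the 6 pairs of times or in the F-test, and for Sdhc and Sdhd the 0 h and 24 h groups overlapped on 3 of 4 probe sets.

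Complex III, which hands electrons from ubiquinol to cytochrome c, had its genes grouped, after their values were seen, into core subunits (Uqcrc1, Uqcrc2, Uqcrfs1 and Cyc1) and the other 5. Of the core 4, Cyc1 holds haem and Uqcrfs1 an iron-sulfur cluster, while Uqcrc1 and Uqcrc2 are termed core proteins and hold neither. At 24 h 2 of 4 core genes, Cyc1 and Uqcrc1, fell and 0 rose (median -0.28). Of the other 5, 2 rose and 0 fell (median 0.10). Over all genes 16.6% were lower and 18.6% higher. Counted by probe set, 2 of 5 core ones fell and 4 of 9 others rose at 24 h. Centring the arrays turned these probe set counts to 3 of 5 core ones lower and 2 of 9 others higher.

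Cyc1, the haem subunit cytochrome c1, read 6077.6 and 6129.6 units at 0 h, 6220.4 and 5372.1 at 6 h, 6471.7 and 6022.8 at 12 h and 4325.8 and 4355.0 at 24 h. All arrays up to 12 h lay between 5372.1 and 6471.7 units and both 24 h arrays below them. The change was -0.49 ± 0.10 (adjusted p = 0.00273) at 24 h against 0 h, which held with any 1 array left out. Against 12 h it was -0.52 ± 0.10 (adjusted p = 0.012). The call was lost without any 12 h or 24 h array (0.0507 to 0.0971). Uqcrc1, a core protein of the matrix side, read 2310.7 and 2361.7 units at 0 h, 2430.1 and 2528.2 at 6 h, 2221.9 and 2412.8 at 12 h and 1748.8 and 1828.8 at 24 h. Here too the 24 h arrays alone were low. The change was -0.47 ± 0.09 (adjusted p = 0.0039) at 24 h against 6 h, which held with any 1 array left out, and -0.38 ± 0.09 (adjusted p = 0.00864) against 0 h (0.0548 without array 1 of 0 h, 0.0707 without array 2 of 0 h and 0.0723 without array 1 of 24 h). Uqcrfs1, the Rieske iron-sulfur protein, had a change of -0.18 ± 0.09 (adjusted p = 0.158) at 24 h, and Uqcrc2, the second core protein, of -0.11 ± 0.15 (adjusted p = 0.6) on its brighter probe set.

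Uqcr10, a small subunit that touches cytochrome c1, was higher from 6 h on 2 of its 3 probe sets and not on the brightest. The dimmest read 253.9 and 284.4 units at 0 h, 500.8 and 453.2 at 6 h, 564.2 and 476.5 at 12 h and 525.7 and 573.6 at 24 h. Every later array was well above both 0 h arrays. The change was 0.78 ± 0.13 (adjusted p = 0.00291) at 6 h, 0.89 ± 0.13 (adjusted p = 0.000848) at 12 h and 0.97 ± 0.13 (adjusted p = 0.000269) at 24 h, all of which held with any 1 array left out. Another, an _x_at one, read 835.0 and 824.7 units at 0 h, 1478.0 and 1069.2 at 6 h, 1593.3 and 1303.1 at 12 h and 1245.2 and 1236.3 at 24 h. The changes were 0.59 ± 0.15 (adjusted p = 0.0189) at 6 h, 0.78 ± 0.15 (adjusted p = 0.00322) at 12 h and 0.57 ± 0.15 (adjusted p = 0.0124) at 24 h, and the call at 12 h held with any 1 array left out. The call at 24 h ended without any 0 h or 24 h array (0.0635 to 0.0709). That at 6 h ended without array 1 (0.103) or 2 (0.108) of 0 h or array 1 of 6 h (0.0919). The brightest one read 5008.7 and 5064.9 units at 0 h, 6673.0 and 5004.0 at 6 h, 5779.9 and 6004.2 at 12 h and 5614.7 and 4752.7 at 24 h. There the 0 h arrays overlapped those of 6 h and 24 h, and the change at 24 h was 0.04 ± 0.13 (adjusted p = 0.863). Which of them follows the Uqcr10 transcript was not tested.

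Among the other small subunits, Uqcr11 changed by 0.37 ± 0.09 (adjusted p = 0.00998) at 24 h (0.0518 without array 1 of 0 h, 0.0899 without array 2 of 0 h and 0.0885 without array 1 of 24 h). Uqcrh, the hinge protein that helps cytochrome c bind, changed by 0.33 ± 0.10 (adjusted p = 0.0259, but 0.134, 0.113, 0.129 and 0.0974 without each 0 h and 24 h array in turn). Uqcrb, the brightest member of complex III, read 14135.0 and 14460.7 units at 0 h, 19876.0 and 13626.4 at 6 h, 16611.9 and 16472.2 at 12 h and 15955.2 and 14776.7 at 24 h. Apart from the first 6 h array its values lay between 13626.4 and 16611.9 units, and no pair of times passed. Both Uqcr11 and Uqcrh lost their 24 h calls with arrays centred on their medians (adjusted p = 0.0680 and 0.111).

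Cycs, cytochrome c itself, which also triggers apoptosis when it leaves the mitochondrion, was measured by 3 probe sets. The brightest read 5189.7 and 5554.9 units at 0 h, 6068.2 and 6584.5 at 6 h, 6243.8 and 5940.3 at 12 h and 5628.9 and 6120.5 at 24 h. Another read 4918.5 and 5171.9 units at 0 h, 6185.2 and 5777.9 at 6 h, 5933.6 and 6099.6 at 12 h and 5207.6 and 4593.7 at 24 h. The dimmest read 1616.3 and 1582.3 units at 0 h, 2560.2 and 2096.3 at 6 h, 2160.7 and 1871.2 at 12 h and 1801.6 and 1807.3 at 24 h. On all 3, both 6 h arrays were above both 0 h arrays, but only the dimmest passed at 6 h (0.53 ± 0.12, adjusted p = 0.01). The call did not hold without array 1 (0.0692) or 2 (0.0787) of 0 h. None passed at 24 h against 0 h. Against 6 h 2 of the 3 fell at 24 h. The middle one changed by -0.29 ± 0.10 (adjusted p = 0.0463). That call ended without any one of 7 arrays (highest 0.315, without array 2 of 24 h). The dimmest changed by -0.36 ± 0.12 (adjusted p = 0.0429). The call was lost without any one of 5 (highest 0.205, without array 1 of 6 h).

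Complex IV, cytochrome c oxidase, where oxygen is reduced, held no call downwards against 0 h. Of 25 tested probe sets 2 rose at 6 h (8%, against 8.65% of all tested probe sets), 8 at 12 h (32%, against 12.1%) and 8 at 24 h (32%, against 17.1%), with medians of 0.20, 0.27 and 0.22, and 23 of 25 had positive changes at 24 h. Of the 8 rises at 24 h, 3 were probe sets of Cox7a2l and 2 of Cox7a2. Counted by gene, of 12 tested 1 rose at 6 h (8.33%, against 9.15% of all genes). At 12 h and at 24 h 3 genes rose (25%, against 13.3% and 18.6%) and 0 fell. The F-test called 2 of the 12 genes (16.7%, against 42%). At an unadjusted p below 0.05 limma gave 12 higher and 0 lower of the 25 probe sets at 24 h. With arrays centred on their medians 1 rose at 6 h, 4 rose and 0 fell at 12 h and 5 rose and 0 fell at 24 h (median 0.12), and with quantile normalization 11 rose and 0 fell at 24 h. All core subunits of this complex are encoded in mitochondrial DNA and lie outside the rule.

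Cox7a2l, which ties complexes III and IV into supercomplexes, had the largest increase of any member at 24 h on 1 of its 3 probe sets, which read 1292.5 and 1289.7 units at 0 h, 1482.6 and 1416.5 at 6 h, 2125.0 and 2180.7 at 12 h and 2656.5 and 2744.3 at 24 h. Values stood higher at each time without overlap, 2.07-fold at 24 h. The log2 change was 0.73 ± 0.09 (adjusted p = 0.000295) at 12 h and 1.05 ± 0.09 (adjusted p = 1.21e-05) at 24 h against 0 h. At 24 h against 6 h it was 0.89 ± 0.09 (adjusted p = 6.33e-05), and these 3 calls held with any 1 array left out.

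A second Cox7a2l probe set read 1147.7 and 1438.3 units at 0 h, 1542.9 and 1519.3 at 6 h, 1777.8 and 1828.1 at 12 h and 2298.5 and 2426.3 at 24 h. The change was 0.87 ± 0.11 (adjusted p = 0.0002) at 24 h. The brightest read 1731.9 and 1762.2 units at 0 h, 1926.2 and 2179.0 at 6 h, 2591.9 and 2350.1 at 12 h and 2638.3 and 3823.5 at 24 h, where the 24 h arrays differed by over 1000 units from each other and both stood above all others (0.85 ± 0.15, adjusted p = 0.00131). Both calls at 24 h against 0 h held with any 1 array left out. At 24 h against 6 h the second probe set changed by 0.62 ± 0.11 (adjusted p = 0.00253), and the brightest by 0.63 ± 0.15 (adjusted p = 0.0107, but 0.0509 without array 1 of 6 h and 0.106 without array 2 of 24 h).

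Among the other subunits of complex IV, Ndufa4, first taken for a complex I subunit and now counted with complex IV, changed by 0.40 ± 0.09 (adjusted p = 0.00565) at 24 h (0.0821 without array 1 of 0 h). Cox6a1, the ubiquitous isoform and the brightest of the complex, read 13553.7 and 13166.4 units at 0 h, 16755.7 and 13927.5 at 6 h, 16196.7 and 16694.9 at 12 h and 16784.9 and 15162.0 at 24 h. Each later array was above both 0 h arrays, without a call (0.30 ± 0.11, adjusted p = 0.0609 at 12 h). Its other probe set, an _s_at one, passed at 24 h (0.40 ± 0.10, adjusted p = 0.0111, but 0.101 without array 2 of 0 h and 0.096 without array 1 of 24 h). Cox7a2, a small subunit close in sequence to Cox7a2l, changed by 0.28 ± 0.10 (adjusted p = 0.0422) at 24 h on its brightest probe set. The call did not hold without any one of 6 arrays (highest 0.194, without array 1 of 24 h).

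For a pair of small subunits, a probe set that stood apart from its gene's brighter ones also split the replicates. Cox6c on such a probe set read 1630.1 and 1532.6 units at 0 h, 1638.8 and 2721.0 at 6 h, 3000.1 and 2611.0 at 12 h and 2165.2 and 3001.7 at 24 h. The second 6 h array and the second 24 h array were higher than their partners. The change was 0.82 ± 0.21 (adjusted p = 0.0152) at 12 h (0.0697 without array 1 of 0 h, 0.0946 without array 2 of 0 h and 0.0892 without array 1 of 12 h). At 24 h it was 0.68 ± 0.21 (adjusted p = 0.0259, but 0.0906, 0.126 and 0.218 without array 1 of 0 h, array 2 of 0 h and array 2 of 24 h), and the brighter Cox6c probe set was at 0.18 ± 0.09 (adjusted p = 0.147). Cox5a on an _x_at probe set read 1877.7 and 2062.5 units at 0 h, 2370.1 and 3941.0 at 6 h, 1823.3 and 1383.4 at 12 h and 2335.0 and 4046.7 at 24 h, again with the second 6 h and 24 h arrays high. Its change at 12 h against 6 h was -0.94 ± 0.26 (adjusted p = 0.0483) and ended without any of 5 arrays (highest 0.235, without array 2 of 12 h). The brightest Cox5a probe set had a change of 0.27 ± 0.13 (adjusted p = 0.153) at 24 h.

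Isoforms that certain tissues, the testis among them, use in place of these subunits were dim. Cox6a2 (heart and muscle) read 97.7 and 133.2 units at 0 h, 81.8 and 98.4 at 6 h, 68.3 and 90.2 at 12 h and 116.8 and 111.8 at 24 h, and Cox8c (testis) read 124.0 and 144.1 units at 0 h, 72.6 and 130.4 at 6 h, 116.5 and 263.4 at 12 h and 113.6 and 159.6 at 24 h. Both passed the filter, without a call. Cox7a1 (heart and muscle) read 52.6 and 54.7 units at 0 h, 61.6 and 59.4 at 6 h, 57.6 and 67.1 at 12 h and 137.9 and 121.4 at 24 h. Its 24 h arrays were the highest of the 8, but the probe set was too dim to be tested.

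Cox4i2 (lung, and low oxygen) read 4.1 and 105.3 units at 0 h, 70.0 and 99.1 at 6 h, 80.6 and 81.5 at 12 h and 68.3 and 114.5 at 24 h, and Cox6b2 (testis) read 23.5 and 17.4 units at 0 h, 7.3 and 15.9 at 6 h, 10.6 and 31.7 at 12 h and 72.5 and 80.7 at 24 h. Cox8b (heart and muscle) read 40.5 and 16.5 units at 0 h, 8.0 and 14.2 at 6 h, 13.2 and 17.7 at 12 h and 15.6 and 5.5 at 24 h. These 3 were also too dim to be tested, and Cox6b2 was highest on both 24 h arrays.

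The ATP synthase, which turns the proton gradient into ATP, had calls in both directions at 24 h. Of its 26 probe sets for 17 genes 3 rose at 6 h (11.5%, against 8.65% of all tested probe sets), 4 at 12 h (15.4%, against 12.1%) and 3 at 24 h (11.5%, against 17.1%). At 24 h 1 fell (3.85%, against 15.8%), with a median of -0.0032 at 24 h. At an unadjusted p below 0.05 limma gave 4 higher and 7 lower. The F1 part (catalytic head and central stalk, 8 probe sets) had 1 rise at 24 h, that of Atp5e in the stalk. It had 1 fall, that of Atp5a1 in the head, and a median of -0.22. The other 18 probe sets had 2 rises, 0 falls and a median of 0.02. Centring the arrays gave 1 rise and 8 falls at 24 h with a median of -0.11, and quantile normalization 4 rises and 2 falls. That median is close to the one of all tested probe sets with centring, so these falls are not read as particular to complex V.

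Atp5e, the epsilon subunit of the central stalk, has a single probe set, an _s_at one, which read 2268.1 and 2237.1 units at 0 h, 3192.2 and 2745.0 at 6 h, 3584.1 and 3645.2 at 12 h and 3680.0 and 3415.2 at 24 h. Every later array was above both 0 h arrays, with the 12 h and 24 h groups overlapping. The change was 0.68 ± 0.10 (adjusted p = 0.000774) at 12 h and 0.65 ± 0.10 (adjusted p = 0.000558) at 24 h, 1.57-fold. These calls held with any 1 array left out, but that at 6 h (0.39 ± 0.10, adjusted p = 0.0198) ended without array 1 (0.114) or 2 (0.124) of 0 h or array 1 of 6 h (0.0671). Atp5a1, the alpha subunit of the catalytic head, changed by -0.32 ± 0.09 (adjusted p = 0.0228) at 24 h (0.115 and 0.122 without each 0 h array and 0.0645 and 0.157 without each 24 h array). Atp5b, the catalytic beta subunit, was at -0.14 ± 0.11 (adjusted p = 0.353).

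Atp5g1, one of 3 genes for the proton-carrying c subunit, read 4138.5 and 3985.7 units at 0 h, 5355.3 and 4091.8 at 6 h, 4497.5 and 4215.1 at 12 h and 3576.0 and 2738.0 at 24 h. Its 24 h arrays were the lowest and its first 6 h array the highest. The change was -0.58 ± 0.14 (adjusted p = 0.0133) at 24 h against 6 h (0.0726 without array 1 of 6 h and 0.138 without array 2 of 24 h) and -0.37 ± 0.14 (adjusted p = 0.0675) against 0 h. Atp5h, of the peripheral stalk, changed by 0.37 ± 0.09 (adjusted p = 0.0194) at 6 h (0.185 without array 1 of 0 h and 0.0693 without array 2 of 0 h) and 0.32 ± 0.09 (adjusted p = 0.0239) at 24 h (0.2, 0.0611, 0.138 and 0.0843 without each 0 h and 24 h array in turn). Atp5j2, of the membrane sector and the brightest of complex V, read 9755.5 and 9630.0 units at 0 h, 10072.6 and 9442.4 at 6 h, 10849.7 and 12059.0 at 12 h and 11023.3 and 10236.4 at 24 h, and no pair of times passed on it. Its other probe set changed by 0.40 ± 0.10 (adjusted p = 0.016) at 12 h (0.0774 without array 1 of 0 h, 0.123 without array 2 of 0 h and 0.132 without array 2 of 12 h).

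**Figure D4:**
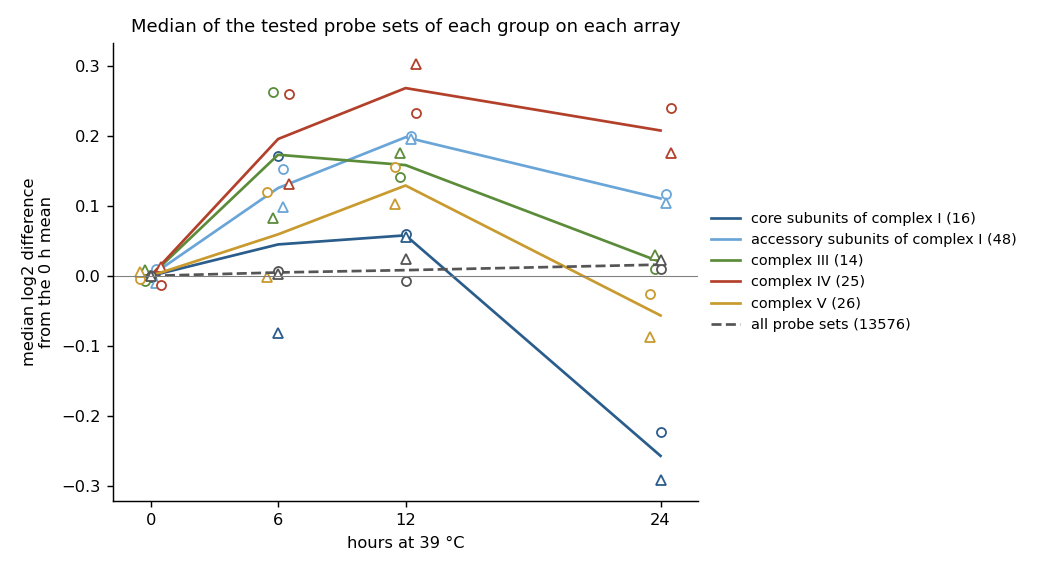
Median log2 difference from the 0 h mean over the tested probe sets of each group, per array, against hours at 39 °C. Circles are replicate 1, triangles replicate 2 and lines the mean of both. Points are shifted sideways so that they can be told apart, and the number of probe sets stands in the legend. At 24 h the core complex I medians are -0.22 and -0.29, while those of complex IV are 0.24 and 0.18.

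Genes that build, regulate or feed the chain were read from lists chosen with earlier results of these data known. Of 50 assembly factors listed, 34 were tested, and 7 rose and 1 fell at 6 h, 8 rose and 3 fell at 12 h and 11 rose and 3 fell at 24 h, against the gene shares of 18.6% higher and 16.6% lower at 24 h. The gene shares were 9.15% higher and 9.33% lower at 6 h, and 13.3% and 12% at 12 h. Centring the arrays gave 7 rises and 4 falls of assembly factors at 24 h. Ndufaf4, a complex I assembly factor, read 1225.4 and 1410.9 units at 0 h, 1010.9 and 1178.1 at 6 h, 776.5 and 742.9 at 12 h and 636.2 and 609.8 at 24 h. It stepped down at each time and changed by -1.05 ± 0.12 (adjusted p = 6.58e-05) at 24 h. This call and those of Coa7 and Bcs1l that follow held with any 1 array left out. Coa7, named for complex IV assembly, read 532.9 and 732.6 units at 0 h, 323.6 and 456.1 at 6 h, 319.6 and 272.6 at 12 h and 423.0 and 382.4 at 24 h, lowest at 12 h (-1.03 ± 0.19, adjusted p = 0.00252 against 0 h). Bcs1l, the chaperone that inserts the Rieske protein into complex III, read 323.9 and 265.8 units at 0 h, 397.1 and 453.0 at 6 h, 487.7 and 618.4 at 12 h and 444.1 and 477.0 at 24 h, and all later arrays were above both 0 h arrays (0.86 ± 0.15, adjusted p = 0.0022 at 12 h). Ndufaf5, a methyltransferase for Ndufs7, read 197.6 and 140.9 units at 0 h, 273.2 and 223.3 at 6 h, 194.6 and 236.6 at 12 h and 129.4 and 120.7 at 24 h, lowest at 24 h, with no call against 0 h and -0.87 ± 0.20 (adjusted p = 0.00782) at 24 h against 6 h (0.0571 without array 2 of 24 h and 0.0509 without array 1 of 6 h).

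Of the regulators of mitochondrial biogenesis 19 were tested. At 6 h 5 rose (26.3%, against 9.15% of all genes) and 1 fell (5.26%, against 9.33%). At 12 h 2 rose (10.5%, against 13.3%) and 0 fell (against 12%). At 24 h 3 rose (15.8%, against 18.6%) and 2 fell (10.5%, against 16.6%). After centring of the arrays 2 rose and 2 fell at 12 h and 1 rose and 4 fell at 24 h, so the balance at 24 h turned with the scaling. Nrf1, the nuclear respiratory factor, read 431.2 and 345.8 units at 0 h, 332.2 and 353.0 at 6 h, 375.8 and 382.5 at 12 h and 235.2 and 230.9 at 24 h, and both 24 h arrays were below all others (-0.68 ± 0.14, adjusted p = 0.00352 at 24 h against 0 h, 0.0538 without array 1 of 0 h). Gabpa, the DNA-binding subunit of GABP, read 673.8 and 693.4 units at 0 h, 929.5 and 1041.9 at 6 h, 681.4 and 755.4 at 12 h and 625.7 and 667.5 at 24 h, and was high at 6 h alone (0.51 ± 0.11, adjusted p = 0.0103, 0.0854 without array 1 of 0 h and 0.0645 without array 2 of 0 h). Tfam, which packages and transcribes mitochondrial DNA, read 967.9 and 1088.5 units at 0 h, 964.8 and 1424.4 at 6 h, 1223.2 and 1234.5 at 12 h and 1096.4 and 1334.1 at 24 h, with its 6 h and 24 h arrays far apart (0.23 ± 0.16, adjusted p = 0.315 at 24 h). These 3 and Ppargc1a are given whatever they did.

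Ppargc1a, the coactivator PGC-1 alpha, read 46.5 and 51.9 units at 0 h, 47.7 and 66.0 at 6 h, 66.1 and 74.8 at 12 h and 75.4 and 79.9 at 24 h. It was too dim to be tested, and both 24 h arrays lay above all others. Tfb1m, which methylates mitochondrial ribosomal RNA, read 216.3 and 185.1 units at 0 h, 372.2 and 452.8 at 6 h, 356.0 and 371.2 at 12 h and 367.0 and 297.6 at 24 h, above 0 h at every later time (0.96 ± 0.16, adjusted p = 0.00217 at 6 h). Slirp, which stabilises mitochondrial mRNAs, read 2026.6 and 2012.3 units at 0 h, 2104.4 and 2085.1 at 6 h, 1729.2 and 1584.9 at 12 h and 1370.1 and 1242.2 at 24 h, lowest at 24 h (-0.62 ± 0.10, adjusted p = 0.000653), and Pprc1, a relative of PGC-1 alpha, read 796.1 and 721.5 units at 0 h, 997.4 and 886.7 at 6 h, 682.5 and 730.2 at 12 h and 668.6 and 557.4 at 24 h, with no call against 0 h and -0.61 ± 0.12 (adjusted p = 0.00482) at 24 h against 6 h (0.0621 without array 2 of 24 h). The Tfb1m and Slirp calls held with any 1 array left out.

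The TCA cycle and pyruvate dehydrogenase genes, which supply NADH and succinate, had 0 rises against 0 h by limma. Over all genes 9.15%, 13.3% and 18.6% were higher at 6, 12 and 24 h. Of 19 tested 3 fell at 6 h (15.8%, against 9.33% of all genes) and 3 at 12 h (15.8%, against 12%). At 24 h 6 fell (31.6%, against 16.6%). At an unadjusted p below 0.05 1 was higher and 6 were lower at 24 h. Suclg2, a subunit of succinyl-CoA ligase, read 514.4 and 395.0 units at 0 h, 303.4 and 330.0 at 6 h, 276.8 and 289.2 at 12 h and 182.1 and 220.5 at 24 h, lowest at 24 h (-1.09 ± 0.16, adjusted p = 0.000418). Dlst, of the 2-oxoglutarate dehydrogenase complex, read 1158.8 and 1076.5 units at 0 h, 836.3 and 839.2 at 6 h, 799.0 and 841.2 at 12 h and 774.9 and 676.9 at 24 h, with every later array below both 0 h arrays (-0.61 ± 0.11, adjusted p = 0.00151). Both calls held with any 1 array left out. Dlat, of pyruvate dehydrogenase, changed by -0.54 ± 0.13 (adjusted p = 0.00787) at 24 h (0.0915 without array 1 of 0 h and 0.0723 without array 2 of 24 h). Idh3g, of isocitrate dehydrogenase, changed by -0.37 ± 0.10 (adjusted p = 0.0151, but 0.134 without array 2 of 0 h and 0.129 without array 1 of 24 h).

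Of 12 tested carriers of the mitochondrial membranes 0 rose and 3 fell at 6 h (25% lower, against 9.33% of all genes). At 12 h 1 rose (8.33%, against 13.3%) and 0 fell, or 0 and 0 with arrays centred on their medians. At 24 h 1 rose (8.33%, against 18.6%) and 4 fell (33.3%, against 16.6%). Tspo, an outer membrane protein that binds cholesterol, read 2522.1 and 2602.4 units at 0 h, 2642.3 and 2414.3 at 6 h, 3129.5 and 3212.9 at 12 h and 3988.4 and 3971.0 at 24 h, highest on both 24 h arrays (0.63 ± 0.09, adjusted p = 0.000351, which held with any 1 array left out). Mpc1, of the pyruvate carrier, read 1291.4 and 1276.5 units at 0 h, 822.8 and 1069.0 at 6 h, 1079.7 and 1078.9 at 12 h and 1460.6 and 1631.3 at 24 h, lowest at 6 h (-0.44 ± 0.13, adjusted p = 0.0319, 0.16 without array 1 of 0 h, 0.14 without array 2 of 0 h and 0.145 without array 1 of 6 h). Slc25a10, the dicarboxylate carrier, changed by -0.53 ± 0.13 (adjusted p = 0.00762) at 24 h (0.0591 without array 2 of 0 h and 0.0845 without array 1 of 24 h). Slc25a13, an aspartate-glutamate carrier, changed by -0.69 ± 0.17 (adjusted p = 0.0168) at 6 h (0.0788 without array 1 of 0 h, 0.117 without array 2 of 0 h and 0.0821 without array 1 of 6 h).

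Set beside other large families, 12 of the 76 subunit genes rose and 9 fell at 24 h (median 0.05), while of 74 genes for proteins of the mitochondrial ribosome, which makes the mitochondrially encoded subunits, 5 rose and 36 fell (median -0.34). At 12 h 15 subunit genes rose and 1 fell (median 0.18), beside 10 rises and 8 falls for the mitochondrial ribosome (median -0.0014). Of 46 cytosolic ribosomal protein genes 8 rose (17.4%) and 0 fell at 12 h (median 0.26), and 3 rose and 3 fell at 24 h (median 0.02). Over all genes 13.3% were higher and 12% lower at 12 h, and 18.6% and 16.6% at 24 h. For the mitochondrial ribosome 6.76% rose and 48.6% fell at 24 h. The cytosolic 12 h result depended on the scaling, with 3 rises and 0 falls with centred arrays (median 0.20) and with quantile normalization (median 0.04). With arrays centred on their medians the counts at 24 h were 4 rises and 45 falls for the mitochondrial ribosome and 2 rises and 4 falls for the cytosolic one. The difference between families was not tested. Across the 76 subunit genes brightness and the change at 24 h had a Spearman rho of 0.015, given as a description, since genes share the arrays and are not independent replicates. Of 41 genes with several tested probe sets, 0 had calls in opposite directions at 24 h, and Uqcr10 was the 1 gene whose probe sets differed by over 0.58. A further 8 probe sets whose annotation joins a subunit gene to another gene or pseudogene were not used, since their signal cannot be given to 1 gene.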

How the data were processed

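RNA of 8 samples, 2 per time, was measured on 8 arrays, per the labels' protocols, and the deposited table gives an intensity for each probe set and array, on a linear scale as its values show. The software that made them is not given in the sources used here. They lay between 0.1 and 38130.2 units, and each array's mean after trimming 2% at both ends was 500.18 to 500.2, which shows that the authors had scaled the intensities of all arrays alike. No rescaling was added. The number of arrays limits the precision.

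Each value was set to log2(intensity + 22), where 22 is the 20th percentile of all values. Changes are on this scale, which understates those of dim probe sets. Of 22626 probe sets left without 64 controls, 13576 had a mean at or above the 40th percentile (6.59 log2) and were tested with limma 3.58.1 in R 4.3.3 (lmFit and eBayes with trend, all 8 arrays in 1 fit, 4 residual degrees of freedom), by the moderated F-test over the 4 times and by 6 two-sided pair contrasts, with Benjamini-Hochberg adjustment over all tested probe sets. Tables were built with Python 3.11.15 and pandas 2.3.3, and the fit was tested on simulated data. Gene symbols came from the platform annotation, and all 154 member symbols matched RefSeq by identifier.

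Members, lists and tests were chosen with earlier results of these data known. The text names the 16 members called by the F-test with the widest span, up to 3 rises and 3 falls per pair of times, the brightest member of each complex, Cycs, Cyc1, the Sdh genes, tissue-restricted isoforms, genes whose probe sets differ by over 0.58 at 24 h, up to 4 called genes per other list, and Ppargc1a, Nrf1, Gabpa and Tfam. Other genes are named after their values were seen. Alternatives were other offsets (50 and 1), no filter, a filter at the 60th percentile, quantile normalization, arrays centred on their medians, no variance trend, a replicate block, a fit to only the 2 times compared, 1 probe set per gene, and each array left out in turn.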

Additional observations from a re-analysis of the deposited data

How the results depend on the processing

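Of 3846 values recomputed for the members named, 3549 kept their side of the threshold, 196 lost a call, 101 gained one and 0 calls reversed. Changes that were not called could differ in sign between alternatives. Counts of calls moved widely with single arrays left out, and some moved further in a fit to only the 2 times compared. The F-test then called 3303 to 6608 of all tested probe sets (5447 with all arrays) and 18 to 83 members (50). For all tested probe sets the counts ran from 836 to 3003 at 6 h against 0 h (2441), 1523 to 4148 at 12 h against 0 h (3257), 2595 to 5191 at 24 h against 0 h (4472), 330 to 1552 at 12 h against 6 h (1130), 1746 to 3827 at 24 h against 6 h (3377) and 84 to 1645 at 24 h against 12 h (934). For the members, in the same order of comparisons, they ran from 1 to 45 (17), 9 to 61 (35), 17 to 63 (38), 1 to 12 (5), 7 to 48 (25) and 0 to 24 (7), and the members' median log2 change from 0.090 to 0.176, 0.173 to 0.195, 0.048 to 0.111, -0.010 to 0.078, -0.086 to -0.013 and -0.141 to -0.072. With 1 array left at a time, that array is assumed to vary like the others. Fewer calls came with 1 probe set per gene (7, 16, 21, 1, 12 and 4 for the 6 pairs in that order), by its construction. Without a filter the members' counts were 32 by the F-test, 7 at 6 h and 19 at 12 h against 0 h, 2 at 12 h against 6 h and 4 at 24 h against 12 h, and those of all probe sets for the last 2 pairs 644 and 529. With a filter at the 60th percentile members' counts for those 2 pairs were 8 and 11. Without a variance trend they were 21 by the F-test and 4, 12, 25, 1, 16 and 1 for the 6 pairs, and 607 and 369 of all probe sets at 12 h against 6 h and 24 h against 12 h. Fitted to only the 2 times compared, 7, 58, 69, 0, 15 and 16 members and, at 12 h against 6 h, 240 of all probe sets were called. That count of 0 members by limma stands beside 12 at an unadjusted p below 0.05 and 5 in the fit to all times. Centring arrays gave 11 and 18 members at 6 h and 12 h against 0 h, and medians of 0.11 (12 h) and -0.034 (24 h) against 0 h, -0.0053 at 12 h against 6 h, and -0.13 and -0.15 at 24 h against 6 h and 12 h. Of all calls at 24 h against 0 h, 37.5% were then higher, against 52.0% as deposited, and at 12 h against 0 h 40.4%, against 50.5%. At 12 h against 6 h it was 45.6% against 55.4%, at 24 h against 6 h 40.5% against 54.7%, and at 24 h against 12 h 42.2% against 54.8%. Quantile normalization gave medians of 0.10 and 0.12 at 6 h and 12 h against 0 h, and of 0.022 and -0.039 at 24 h against 6 h and 12 h. With the replicate number as a block 9 members were called at 12 h against 6 h and 12 at 24 h against 12 h, and no other count moved by over 1.5 times. Deviations of samples that share a replicate number correlated at 0.0496 to 0.18 between times, and no pairing was used. These correlations cannot show whether such samples shared more than a number, and the labels do not say. For all of these the cause was not tested.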
